A study of Mus musculus with 209 samples.

Results

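Gamma-delta T cells were examined 2 h after an intravenous injection of TNFa. The libraries were chosen by their titles, as the gamma-delta T cell (Tgd) libraries of the TNFa and PBS groups in the 2 h screen, and they are 8 of 209 in the series. The TNFa group holds 3 libraries and the PBS group 5. Per the labels' protocols, the mice were C57BL/6 (written C57Bl/6J in the protocol) and 5 to 8 weeks of age. TNFa mice were given 5 µg of the cytokine in 120 µL of PBS, and PBS mice the same volume without cytokine; no genotype other than the strain is given. Each library was made from 1000 cells sorted by 2 rounds of flow cytometry into lysis buffer. Gamma-delta T cells after IL1b or IL6 (3 libraries each, same dose), and CD4 T cells (T.4) and NK cells after TNFa or PBS (3 and 5 libraries each), served for comparison. The spleen is the organ given in the titles, which were followed here, although the tissue field reads Peritoneal Cavity. How the cells were gated, whether mice were pooled and whether each replicate is a mouse of its own are not stated. The p-values therefore reflect the spread from library to library, which may be technical.

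Gamma-delta T cells are T lymphocytes with a receptor of gamma and delta chains, and they respond early, in part without recognising a peptide. Some of them are poised to make IL17, and others are poised to make interferon-gamma and resemble NK cells and cytotoxic T cells. TNF binds TNFR1, which most cells carry, and TNFR2, which is prominent on T cells. Both receptors recruit TRAF adaptors and activate the IkB kinases, which free NF-kB to enter the nucleus. NF-kB then transcribes genes of inflammation and survival, together with the IkB proteins and A20 that switch the pathway off again.

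Totals were 3618637 to 4843712 counts in the TNFa libraries, against 3881265 to 5452296 in the PBS libraries. The number of genes with a count was lower in every TNFa library (18839 to 21581) than in any PBS library (21813 to 25822); the part of this gap in the results was not tested. Mitochondrial genes took 0.857% to 1.05% of counts in TNFa libraries and 0.801% to 0.989% in PBS libraries. The gamma-delta label fitted its markers, given in CPM (counts scaled to a common library total). Trdc, the delta chain constant gene, was at 1417, 1442 and 1561 CPM in TNFa libraries and at 1198 to 1494 CPM in PBS libraries. None of the 8 gamma-delta markers differed at the threshold. Their sum was 5371, 5418 and 5429 CPM in TNFa libraries, below the 5572 to 6342 CPM in PBS libraries. Cd4 stayed at or under 6.22 CPM in TNFa libraries and 23.7 CPM in PBS libraries, and Cd8a at or under 2.57 and 4.45 CPM. The whole list of 8 alpha-beta T markers, with Trac, Trbc1 and Trbc2, was not low. It summed to 1509 to 1618 CPM in TNFa libraries and 1581 to 1912 CPM in PBS libraries. The monocyte markers (8, of which 3 averaged under 1 CPM and Fcgr1 had no count) summed to 66.7, 24.9 and 95.8 CPM in TNFa libraries 1, 2 and 3, and to 19.5 to 60.2 CPM in PBS libraries. Among them Csf1r, the receptor that defines monocytes and macrophages, was at 20.5, 0 and 29.1 CPM in the same TNFa libraries. The macrophage markers (9, of which 2 averaged under 1 CPM) summed to 64.6, 42.3 and 22.8 CPM in TNFa libraries, and to 8.98 to 43.2 CPM in PBS libraries. The B cell markers (9, of which 4 averaged under 1 CPM) summed to 55.2 to 64.8 CPM in TNFa libraries and 87.4 to 146 CPM in PBS libraries. The NK markers (8, of which 2 averaged under 1 CPM) summed to 389 to 456 CPM against 240 to 309 CPM, with Irf8 and Klrb1c as the members called (Klrb1c not without TNFa library 1, adjusted p = 0.113, or 3, 0.079; range 0.00115 to 0.113). The regulatory T cell markers (6) summed to 151 to 210 CPM against 62.9 to 104 CPM, with Il2ra and Ikzf4 as the members called. The call of Ikzf4 was lost without TNFa library 1 (0.123), 2 (0.184) or 3 (0.0618) or PBS library 1 (0.0879) or 5 (0.0719), within a range of 0.00919 to 0.184. Foxp3 was at 0.214, 0 and 0 CPM in TNFa libraries and at 0.927 to 8.26 CPM in PBS libraries. The part of these other cell types in the results was not tested beyond the values given beside them. In bulk libraries, fewer cells of a kind and less RNA per cell cannot be told apart.

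TNFa changed 465 of 13616 genes tested at an adjusted p under 0.05, which is 3.42% of them. Of these, 258 were raised (1.89%) and 207 were lowered (1.52%), and the median log2 fold change of all genes was −0.03. The raised genes were led by Cd83, the chemokine Cxcl10 and the junction protein gene Lad1, and they included NF-kB inhibitors and subunits, interferon-inducible GTPases, SOCS genes and the costimulator Tnfrsf9. The lowered genes included those for sphingosine-1-phosphate receptors, the transcription factors Klf2, Id3 and Lef1, and the metabolic enzymes Pygl and Cpt1a. The count was 300 without TNFa library 1 and 273 without TNFa library 3.

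**Figure D1:**
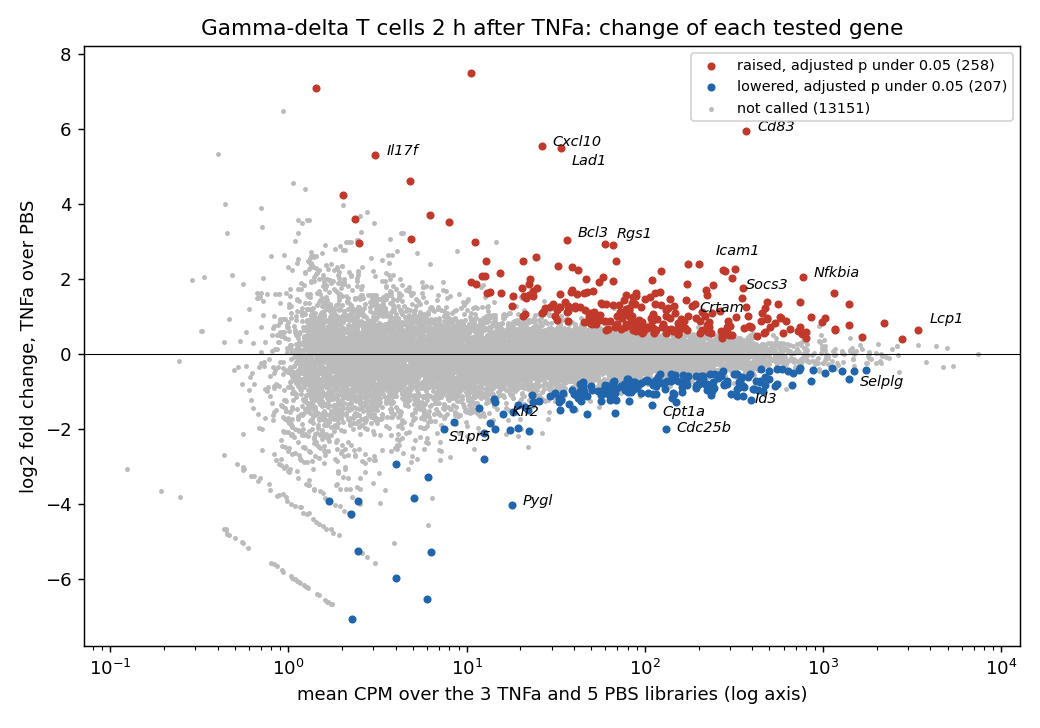
Each point is a tested gene, with its mean CPM over the 3 TNFa and 5 PBS libraries on a log axis and its log2 fold change, TNFa over PBS, on the other axis. The 258 raised genes are red and the 207 lowered genes blue, and Cd83 stands apart as a gene that is both strongly raised and abundant.

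Among TNF receptors, ligands and proximal signalling genes, 3 of 25 tested members were raised and none lowered, with a median log2 fold change of 0.28. Both receptors were detected. Tnfrsf1a, which encodes TNFR1, was at 38.5, 26.8 and 41.6 CPM in TNFa libraries, against 57.8, 50.2, 68.1, 57.1 and 58.1 CPM in PBS libraries. All TNFa values lay below all PBS values, but the difference did not pass edgeR's test (log2 fold change −0.71 ± 0.22 SE, adjusted p = 0.0943), though it did with DESeq2 (0.0345; range over all alternatives 0.0345 to 0.353). Tnfrsf1b, which encodes TNFR2, was at 217, 207 and 186 CPM in TNFa libraries, against 179, 114, 174, 193 and 174 CPM in PBS libraries, and the groups overlapped (0.29 ± 0.19, adjusted p = 0.505). Tnf itself was at 23.9, 11.4 and 40.2 CPM, against 4.13 to 31.7 CPM in PBS libraries, and it was not called (adjusted p = 0.593). The ligands that were raised belong to the lymphotoxin family, which shapes lymphoid tissue. Ltb, for lymphotoxin beta, was at 1861, 1924 and 1904 CPM in TNFa libraries, against 1275, 1268, 901, 1043 and 1037 CPM in PBS libraries, without overlap (0.78 ± 0.13, adjusted p = 0.00112). Lta, for the soluble lymphotoxin, was at 57.5, 48.5 and 68.7 CPM, against 15.1 to 35.6 CPM (1.28 ± 0.31, adjusted p = 0.0252). The call of Lta was lost without TNFa library 1 (adjusted p = 0.0803), TNFa library 3 (0.135), PBS library 2 (0.0518) or PBS library 3 (0.0647), within a range of 0.000922 to 0.135 over all alternatives. Map3k8, the kinase that links NF-kB1 to ERK signalling, was raised by 1.29 ± 0.25 (adjusted p = 0.00388).

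NF-kB inhibitors, subunits and feedback genes were raised in 11 of 20 tested members, with none lowered, and the list's median log2 fold change was 0.83. Nfkbia encodes IkBa, the inhibitor that NF-kB resynthesises first. It was at 1572, 1389 and 1426 CPM in TNFa libraries, against 355, 356, 319, 322 and 396 CPM in PBS libraries. The groups were far apart, with a 4.16-fold difference of fitted means (log2 2.06 ± 0.15, adjusted p = 5.94e-08). The inhibitors Nfkbie (1.65 ± 0.27) and Nfkbib (0.86 ± 0.16) and the nuclear cofactor Bcl3 (3.04 ± 0.36) were raised as well. Tnfaip3, which encodes the deubiquitinase A20, was at 305, 307 and 338 CPM in TNFa libraries, against 95.8, 79.5, 94.8, 74.2 and 90.4 CPM in PBS libraries (1.86 ± 0.24, adjusted p = 7.11e-05). Among subunits, Nfkb2 was at 578, 535 and 548 CPM, against 97.7 to 143 CPM (2.21 ± 0.21), and its partner Relb at 377, 295 and 383 CPM, against 44.7 to 95.3 CPM (2.39 ± 0.26). Both belong to the non-canonical arm of the pathway. Rel was raised by 1.52 ± 0.22 (adjusted p = 0.000289), and Rela, the main canonical subunit, was not called (0.36 ± 0.13, adjusted p = 0.151). The adaptor Traf1 was raised by 0.97 ± 0.18. Nfkb1 (0.60 ± 0.13, adjusted p = 0.0116) lost its call without TNFa library 2 (0.0771) or 3 (0.0535), within a range of 0.000555 to 0.0771. Nfkbiz was not called (0.52 ± 0.20, adjusted p = 0.171).

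The promoters below are shown because a kB motif lay in front of genes with some of the clearest increases. They are RefSeq sequences of GRCm38.p6, given in the gene's direction, and each run begins and ends within the 250 bases before the annotated start. Capitals mark the kB motif, searched as GGG, any 3 bases and TTCC on both strands. Nfkbia's stretch is chr12:55492652-55492691 on the minus strand, that of Nfkb2 is chr19:46304684-46304736 on the plus strand, and that of Serpina3g is chr12:104236047-104236086 on the plus strand.
Nfkbia: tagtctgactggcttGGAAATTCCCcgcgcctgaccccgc
Nfkb2: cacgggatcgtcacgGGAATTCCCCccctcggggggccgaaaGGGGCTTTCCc
Serpina3g: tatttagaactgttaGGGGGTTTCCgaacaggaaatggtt
In these 3 stretches the motif nearest the start began 29, 11 and 85 bases before it. The start used for Nfkb2 lies inside the gene's span, chr19:46300994-46312400, so it is not the outermost annotated start. Over all tested genes with a RefSeq promoter, 500 of 9700 (5.15%) held the motif in that window. Among the raised members of the NF-kB list it was 6 of 9 (66.7%), among all raised genes 26 of 192 (13.5%), and among lowered genes 12 of 165 (7.27%). A match of letters is a description and does not show binding.

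**Figure D2:**
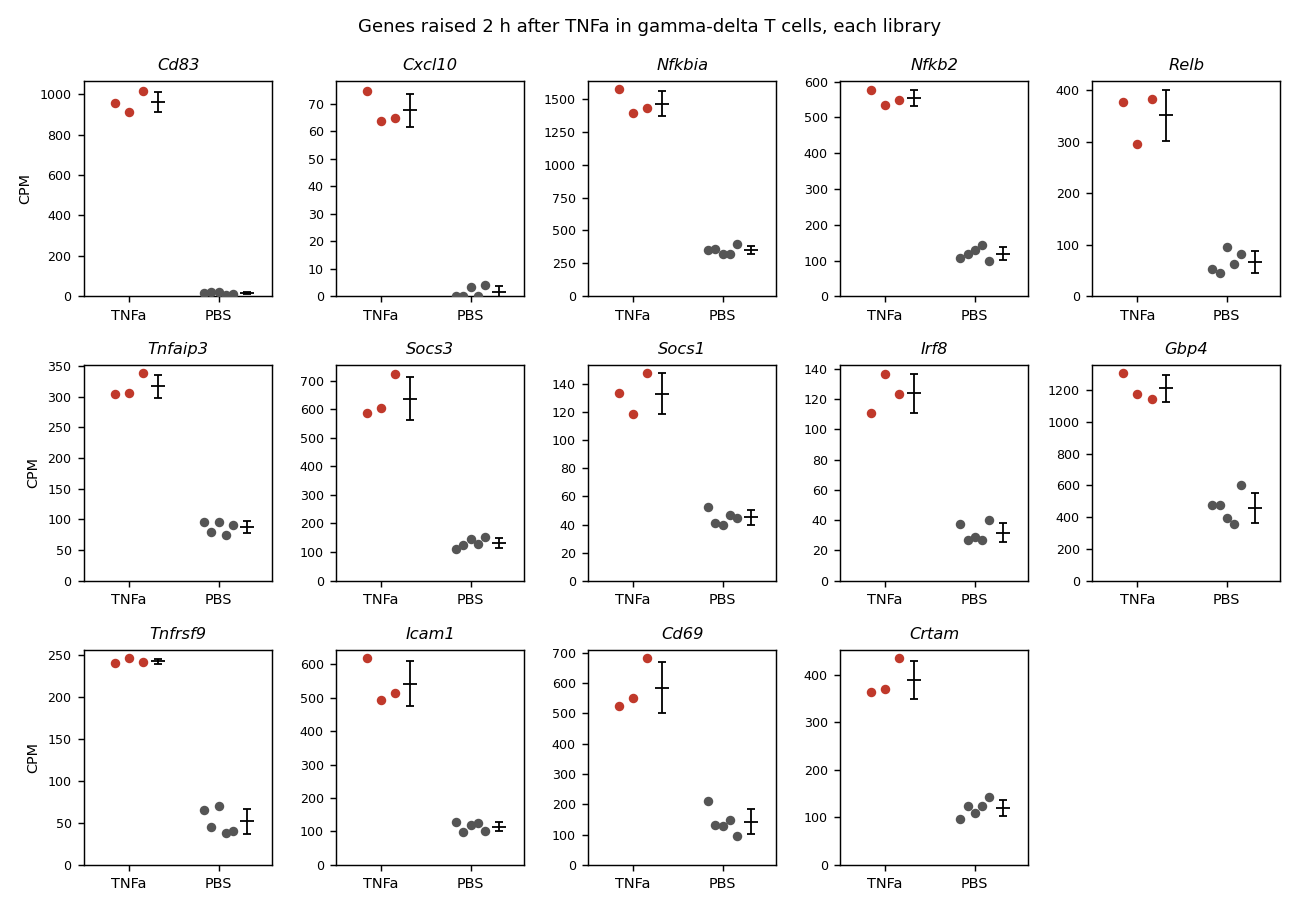
Each panel is a raised gene, with the CPM of the 3 TNFa libraries (red) and the 5 PBS libraries (grey) as points, and the mean and SD as a bar beside them. In each of the 14 genes the TNFa points lie above all PBS points, which the naming rule required of Cd83, Cxcl10 and Relb.

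The gene raised most among those with 20 CPM or more was Cd83 (chromosome 13, 43785112 to 43803133 on GRCm38), a surface protein of activated lymphocytes and dendritic cells. It was at 958, 911 and 1014 CPM in TNFa libraries, against 15.7, 21.0, 20.8, 7.60 and 12.6 CPM in PBS libraries. The fitted difference of Cd83 was 62.0-fold (5.96 ± 0.51, adjusted p = 6.46e-07). Dendritic cell markers (9, of which 4 averaged under 1 CPM) summed to 72.1, 59.1 and 16.5 CPM in TNFa libraries 1, 2 and 3. In PBS libraries they summed to 32.8 to 73.1 CPM. The part of dendritic cell RNA in the Cd83 values was not tested. Lad1, for the anchoring filament protein ladinin, was at 118, 64.9 and 76.2 CPM, against 0 to 4.72 CPM (5.49 ± 0.62, adjusted p = 1.63e-05). Without PBS library 2 the log2 fold change of Lad1 was 6.18. Other genes in this group were Slc2a6, a sugar transporter, at 28.2, 19.7 and 26.2 CPM against 0.762 to 5.61 CPM (3.00 ± 0.63), and Rgs1, a brake on chemokine receptor signalling, at 134, 109 and 151 CPM against 12.1 to 23.2 CPM (2.94 ± 0.28). Gjb2, a gap junction protein, was raised by 2.60 ± 0.32. Serpina3g, a protease inhibitor of activated T cells, was at 436, 406 and 389 CPM, against 81.4, 69.2, 92.2, 67.3 and 78.4 CPM (2.40 ± 0.13, adjusted p = 3.57e-09). Its close relative Serpina3f was raised by 2.90 ± 0.27, and reads of such near-identical copies may be split between them. Among the other TNF-inducible genes listed, 8 of 25 were raised and none lowered, with a median of 0.72. Cd82, a tetraspanin, was at 2246, 1785 and 1940 CPM, against 580 to 709 CPM (1.64 ± 0.11, adjusted p = 2.31e-08), and the adaptor Tank was raised by 1.31 ± 0.19.

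2 genes with larger fitted changes fell outside the naming rule and were chosen after their values were seen. Clec4e, a lectin of macrophages and neutrophils, was at 49.0, 0 and 34.8 CPM in TNFa libraries, and in PBS libraries it was 0.762 CPM in library 3 and 0 in the other 4 (adjusted p = 0.00714, and 0.0711 with DESeq2). Adgre4, a myeloid adhesion receptor, was at 5.99, 0 and 5.42 CPM in TNFa libraries and 0 in all PBS libraries. Both were present in the TNFa libraries with Csf1r counts and absent from TNFa library 2, and the part of myeloid RNA in these calls was not tested.

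IFNg-stimulated genes and interferon regulatory factors had the highest share of raised members among the 25 lists: 21 of 28 tested, with none lowered and a median log2 fold change of 1.01. Cxcl10, whose product attracts CXCR3-bearing T and NK cells, was at 74.4, 63.5 and 64.8 CPM in TNFa libraries, against 0, 0, 3.30, 0.185 and 4.19 CPM in PBS libraries (5.55 ± 0.72, adjusted p = 8.60e-05). Without PBS library 5 the log2 fold change was 6.44. Several raised members are interferon-inducible GTPases, which attack vacuoles of intracellular microbes. Gbp4 was at 1308, 1176 and 1146 CPM in TNFa libraries, against 476, 474, 393, 355 and 602 CPM in PBS libraries (1.40 ± 0.14, adjusted p = 3.66e-06). Igtp was at 629, 548 and 557 CPM, against 264, 224, 225, 218 and 288 CPM (1.25 ± 0.13, adjusted p = 8.58e-06). Tgtp1 (1.46 ± 0.19), Gbp5 (1.75 ± 0.32) and Gbp2 (1.16 ± 0.18) were raised without overlap of the groups, though Gbp and Tgtp genes have similar copies between which reads may be split. Of the factors that drive these genes, Irf1 was at 698, 758 and 618 CPM, against 292 to 439 CPM (0.93 ± 0.17, adjusted p = 0.00235). Irf8, a factor best known from myeloid and B cells, was at 111, 137 and 123 CPM, against 37.2, 26.6, 28.7, 26.5 and 39.8 CPM (1.96 ± 0.20, adjusted p = 4.01e-06). Irf7 (0.75 ± 0.18, adjusted p = 0.0231) lost its call without TNFa library 1 (0.103), TNFa library 2 (0.0877) or PBS library 5 (0.0546), within a range of 8.11e-05 to 0.182.

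Of the type I interferon-stimulated genes, 15 of 31 were raised and none lowered, with a median of 0.72. The antiviral gene Rsad2 was at 70.4, 64.7 and 66.7 CPM in TNFa libraries, against 30.1, 26.0, 27.2, 10.8 and 12.3 CPM in PBS libraries (1.66 ± 0.35, adjusted p = 0.00951). Ifit1 was at 435, 435 and 274 CPM, against 48.4 to 189 CPM (1.58 ± 0.30), and PBS library 4 was the lowest of its group in this gene, as it was for Rsad2, Isg15 and Parp14. Parp14 (1.01 ± 0.18) and Isg15 (1.23 ± 0.24) were raised, and Isg15 lost its call without TNFa library 1 (adjusted p = 0.0656; range 8.11e-05 to 0.0656). In MHC class I presentation, 2 of 21 were raised and none lowered. These were Tapbp, a chaperone of peptide loading, at 972, 957 and 1021 CPM against 538 to 676 CPM (0.72 ± 0.10, adjusted p = 0.000145), and the proteasome activator Psme2 at 445, 534 and 595 CPM against 259 to 371 CPM (0.74 ± 0.13).

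Promoters with interferon elements are shown for a GTPase gene and for Socs1, the feedback inhibitor of interferon signalling, and that of Cxcl10 because it held both kinds of motif. Capitals mark the interferon element, searched as GAAA, any 2 bases and GAAA, or the kB motif as above, on both strands. The stretches are chr11:58199507-58199546 on the plus strand for Igtp, chr16:10785589-10785634 on the minus strand for Socs1, and chr5:92348969-92349117 on the minus strand for Cxcl10.
Igtp: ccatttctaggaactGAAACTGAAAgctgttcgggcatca
Socs1: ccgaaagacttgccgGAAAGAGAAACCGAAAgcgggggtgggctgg
Cxcl10: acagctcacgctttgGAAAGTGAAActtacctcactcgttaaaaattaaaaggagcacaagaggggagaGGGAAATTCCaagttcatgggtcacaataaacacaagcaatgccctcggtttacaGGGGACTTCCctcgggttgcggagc
The run of capitals in Socs1 is a pair of overlapping matches. In Cxcl10 the interferon element comes first and is followed by 2 kB motifs. The element was found in 265 of 9700 tested promoters (2.73%), in 12 of 17 raised members of the IFNg list (70.6%), in 23 of 192 raised genes (12%) and in 2 of 165 lowered genes (1.21%). A STAT motif, searched as TTCNNNGAA, was in 573 of 9700 (5.91%), in 8 of 17 raised members of the IFNg list (47.1%), in 32 of 192 raised genes (16.7%) and in 4 of 165 lowered genes (2.42%).

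The list of SOCS, STAT, JAK and cytokine receptor genes had 13 raised members and 1 lowered of 35, with a median of 0.42. Socs3, an inhibitor of gp130 cytokine signalling, was at 585, 603 and 723 CPM in TNFa libraries, against 110, 124, 146, 129 and 153 CPM in PBS libraries, a 4.82-fold difference (2.27 ± 0.15, adjusted p = 2.16e-08). Socs1 was at 134, 119 and 148 CPM, against 52.6, 41.1, 39.4, 47.1 and 44.9 CPM (1.56 ± 0.18, adjusted p = 1.83e-05). Both groups were tight and apart in both genes. The survival kinase Pim2 was at 640, 592 and 530 CPM, against 171 to 269 CPM (1.51 ± 0.14), and its relative Pim1 was raised by 1.25 ± 0.18. Receptor genes moved in both directions. Il2ra, the alpha chain that gives high affinity for IL2, was at 111, 125 and 179 CPM in TNFa libraries, against 47.0, 36.8, 44.7, 79.6 and 58.1 CPM in PBS libraries (1.37 ± 0.23, adjusted p = 0.00131). The IL2 receptor beta chain gene Il2rb was at 1121, 989 and 1006 CPM, against 1513, 1363, 1700, 1247 and 1297 CPM (−0.46 ± 0.10, adjusted p = 0.0157). The call of Il2rb was lost without TNFa library 2 (0.0970) or 3 (0.0876), within a range of 0.00131 to 0.0970. Il27ra was at 825, 817 and 854 CPM, against 385 to 494 CPM (0.95 ± 0.11, adjusted p = 1.29e-05). Stat3 was raised by 0.82 ± 0.14, and Il2rg, the shared gamma chain, by 0.64 ± 0.12. Il7r, the survival receptor of resting T cells, was at 952, 993 and 1103 CPM, against 558 to 791 CPM (0.59 ± 0.13, adjusted p = 0.0116), a call lost without TNFa library 3 (0.0844; range 0.000856 to 0.0844).

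Survival genes had 4 raised members of 20 and none lowered, with a median of 0.48. Birc3, which encodes the ubiquitin ligase cIAP2 of the TNF receptor complex, was at 309, 293 and 246 CPM in TNFa libraries, against 88.1, 112, 69.9, 100 and 149 CPM in PBS libraries (1.45 ± 0.19, adjusted p = 0.000109). Gadd45g and Gadd45b, which regulate stress kinases, were raised by 2.48 ± 0.25 and 1.86 ± 0.37. The pro-apoptotic Bcl2l11 was also raised (0.87 ± 0.20, adjusted p = 0.0159), a call lost without TNFa library 1 (0.144; range 0.00103 to 0.144). Mcl1, an anti-apoptotic gene, was not called (0.48 ± 0.16, adjusted p = 0.108).

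Among costimulators and checkpoints, 2 of 24 were raised and 2 lowered, with a median of 0.18. Tnfrsf9, for the costimulator 4-1BB, was at 240, 246 and 241 CPM in TNFa libraries, against 64.8, 45.0, 70.6, 38.4 and 40.5 CPM in PBS libraries (2.22 ± 0.24, adjusted p = 1.08e-05). Tnfrsf26, which encodes a member of the TNF receptor family, was at 238, 224 and 225 CPM, against 362 to 455 CPM (−0.83 ± 0.15, adjusted p = 0.00207). Cd274, for PD-L1, was at 101, 56.4 and 62.8 CPM, against 29.3 to 52.1 CPM (0.82 ± 0.22, adjusted p = 0.0449), and Cd28 was at 113, 77.2 and 162 CPM, against 157 to 222 CPM (−0.75 ± 0.19, adjusted p = 0.0313). The last 2 calls depended on single libraries. Cd274 reached adjusted p = 0.317 without TNFa library 1, and the call was also lost without TNFa library 3 (0.0694) and PBS libraries 1 (0.0621), 2 (0.0784), 3 (0.0808) or 4 (0.0964). Cd28 reached 0.190 without TNFa library 2 and was also lost without TNFa library 1 (0.126) and PBS libraries 2 (0.0502), 3 (0.0723) or 5 (0.0610). Over all alternatives the adjusted p ran from 0.0135 to 0.317 for Cd274 and from 0.00227 to 0.190 for Cd28. Crtam, an adhesion and costimulatory molecule of activated NK and T cells, was at 363, 369 and 436 CPM in TNFa libraries, against 97.5, 123, 109, 124 and 142 CPM in PBS libraries (1.71 ± 0.13, adjusted p = 1.89e-07). All TNFa values of Crtam exceeded the highest PBS value.

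Adhesion and egress genes were the list with the most lowered members, 8 of 22, while 2 were raised and the median was −0.24. Of the sphingosine-1-phosphate receptors, S1PR1 in particular draws lymphocytes out of lymphoid tissue. S1pr1 was at 486, 503 and 620 CPM in TNFa libraries, against 704, 836, 701, 768 and 773 CPM in PBS libraries (−0.50 ± 0.11, adjusted p = 0.0148). S1pr4 was at 132, 157 and 156 CPM, against 256, 228, 313, 348 and 312 CPM (−0.97 ± 0.18, adjusted p = 0.00353). S1pr5 was at 9.19, 2.90 and 5.70 CPM, against 8.80, 23.8, 35.1, 21.5 and 32.8 CPM (−2.03 ± 0.50, adjusted p = 0.0278). In S1pr1 and S1pr4 the groups did not overlap, and in S1pr5 TNFa library 1 lay above PBS library 1. Klf2, the factor that sustains S1pr1 and homing receptors, was at 18, 20.5 and 17.4 CPM in TNFa libraries, against 43.8, 52.9, 39.6, 29.5 and 42.1 CPM in PBS libraries (−1.16 ± 0.23, adjusted p = 0.0052). The related Klf3 was lowered by −0.80 ± 0.16. Selplg, the P-selectin ligand, was at 911, 1087 and 1072 CPM, against 1667, 1639, 1458, 1656 and 1634 CPM (−0.65 ± 0.09, adjusted p = 0.000201). Itga4, an integrin chain, and Icam2 were lowered by −0.61 ± 0.13 and −0.72 ± 0.17. The raised members work against egress or in cell contact. Cd69, which removes S1PR1 from the cell surface, was at 523, 549 and 681 CPM, against 211, 132, 128, 147 and 95.8 CPM (2.03 ± 0.19, adjusted p = 1.50e-06). Icam1, the ligand of LFA-1, was at 618, 493 and 515 CPM, against 127, 98.7, 119, 125 and 100 CPM (2.25 ± 0.20, adjusted p = 1.21e-06). The calls of S1pr1 (without TNFa library 1, 0.112, or 2, 0.0929; range 0.000571 to 0.112), Itga4 (without TNFa library 2, 0.0880, or 3, 0.0908; range 0.000415 to 0.0908) and Icam2 (without TNFa library 2, 0.0621, or 3, 0.169; range 0.00204 to 0.169) rested on single libraries. So did that of S1pr5, lost without TNFa libraries 2 (0.149) or 3 (0.116) or PBS libraries 3 (0.0695) or 5 (0.0568), with a range of 0.000354 to 0.178.

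**Figure D3:**
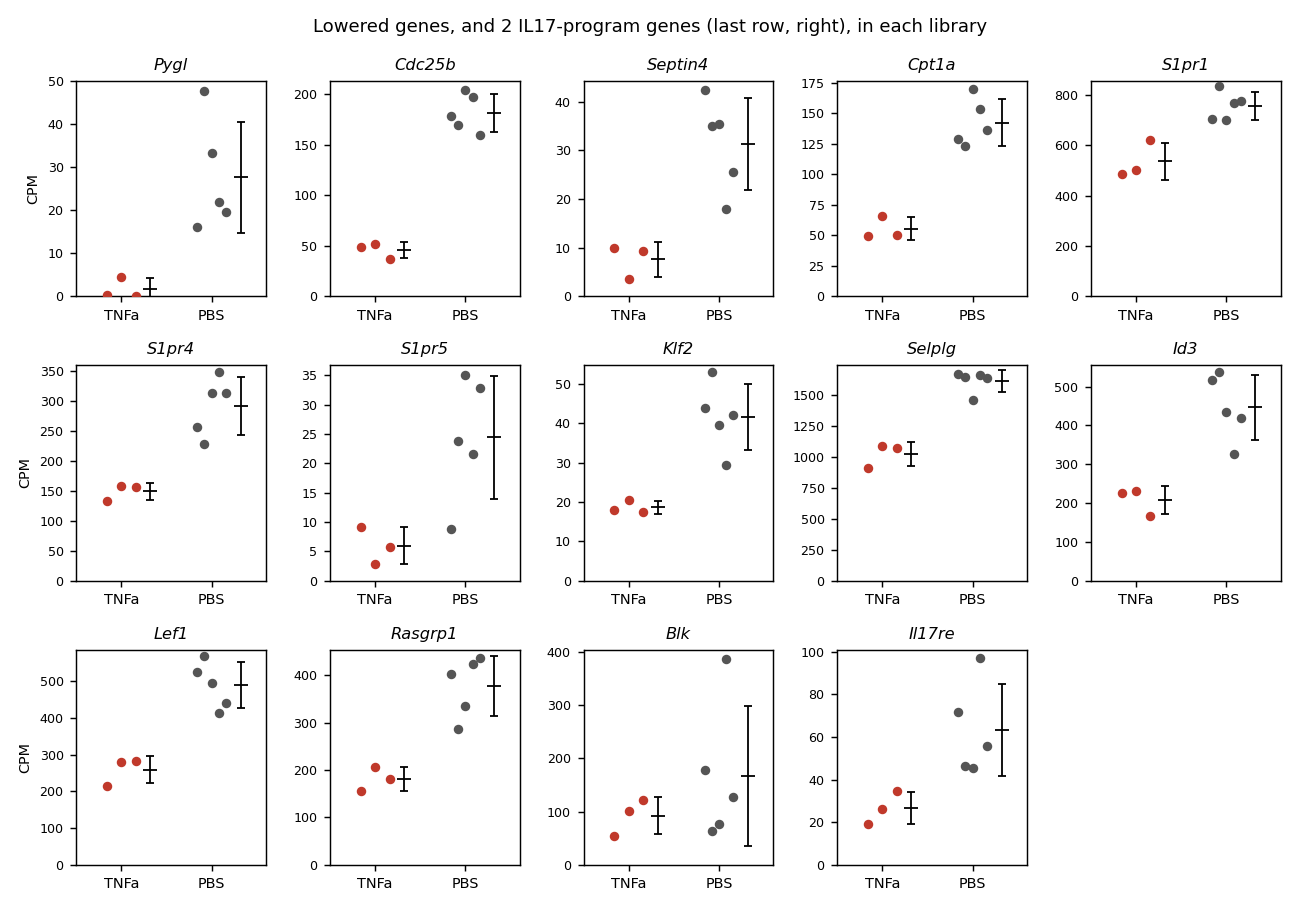
Each panel shows the CPM of a gene in the 3 TNFa libraries (red) and the 5 PBS libraries (grey), with the mean and SD as a bar beside the points. Lowered genes fill the panels up to Rasgrp1, and the last 2 panels hold Blk and Il17re, whose PBS libraries differ widely among themselves.

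The gene lowered most by the naming rule was Pygl (chromosome 12, 70190815 to 70227683 on GRCm38), the liver-type glycogen phosphorylase. It was at 0.214, 4.56 and 0 CPM in TNFa libraries, against 16.1, 47.6, 33.3, 21.9 and 19.5 CPM in PBS libraries (−4.01 ± 0.67, adjusted p = 0.0012), and without TNFa library 2 the log2 fold change was −7.53. Cpt1a, which carries fatty acids into mitochondria for oxidation, was at 49.6, 66.0 and 49.9 CPM, against 129, 123, 170, 154 and 136 CPM (−1.36 ± 0.17, adjusted p = 4.59e-05). Cdc25b, a phosphatase of the cell cycle, was at 49.2, 51.4 and 36.5 CPM, against 178, 169, 204, 197 and 160 CPM (−1.99 ± 0.24, adjusted p = 3.88e-05). TNFa and PBS values of these 3 genes did not overlap, which the naming rule required of Pygl and Cdc25b. Septin4, a cytoskeletal GTPase, was at 9.84, 3.53 and 9.41 CPM, against 18 to 42.3 CPM (−2.05 ± 0.39), and Art2a, an ADP-ribosyltransferase of the T cell surface, at 7.70, 7.47 and 5.42 CPM, against 17.0 to 35.4 CPM (−1.96 ± 0.39). Sgms1, a sphingomyelin synthase, was lowered by −1.58 ± 0.29. Tsc22d1 was at 29.1, 26.6 and 6.28 CPM, against 44.3 to 79.2 CPM (−1.60 ± 0.37, adjusted p = 0.0177), a call lost without TNFa library 3 (0.0600; range 4.74e-07 to 0.0600).

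Among quiescence and naive-state regulators, 2 of 25 were raised and 4 lowered, with a median of 0.04. Lef1, a factor of naive and memory-like T cells, was at 216, 279 and 283 CPM in TNFa libraries, against 526, 569, 496, 415 and 442 CPM in PBS libraries (−0.92 ± 0.14, adjusted p = 0.000401). Id3, an inhibitor of E proteins that shapes gamma-delta subsets, was at 225, 232 and 166 CPM, against 516, 537, 436, 327 and 419 CPM (−1.11 ± 0.18, adjusted p = 0.000816). Tcf7, the close partner of Lef1, did not follow it in these values: 1676, 1484 and 1653 CPM against 1320 to 1655 CPM (0.10 ± 0.10, adjusted p = 0.691). Pik3ip1, an inhibitor of PI3 kinase, was raised (0.88 ± 0.10, adjusted p = 1.26e-05). Of T cell receptor and proximal signalling genes, 1 of 30 was raised and 3 were lowered, with a median of −0.25. Rasgrp1, which couples the receptor to Ras, was at 157, 206 and 180 CPM, against 403, 287, 334, 423 and 435 CPM (−1.06 ± 0.17, adjusted p = 0.000937). Cd5, a brake on receptor signalling, was at 107, 130 and 120 CPM, against 172 to 218 CPM (−0.73 ± 0.14, adjusted p = 0.00345). Cd3e was not called (−0.35 ± 0.11, adjusted p = 0.105).

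The IL17 program of gamma-delta cells had 2 raised members of 20 and none lowered, with a median of −0.46. The raised ones were Il7r, given above, and Il17f. Il17f, for the cytokine IL17F, was at 0, 2.28 and 21.4 CPM in TNFa libraries, against 0, 0.197, 0, 0 and 0.698 CPM in PBS libraries (5.30 ± 1.18, adjusted p = 0.0138). Its increase lay in TNFa library 3. Without that library the log2 fold change was 2.59 (adjusted p = 0.392), without TNFa library 1 it was 5.90 and without PBS library 5 it was 6.62, within an adjusted p range of 2.81e-14 to 0.392. Other genes of IL17-committed cells named here were not called by edgeR as set here, and the PBS libraries differed among themselves. Blk, a kinase needed by these cells, was at 54.3, 101 and 122 CPM in TNFa libraries, against 178, 64.3, 76.7, 387 and 126 CPM (−0.85 ± 0.47, adjusted p = 0.4). Over the alternatives the adjusted p of Blk ran from 0.000833, with no filter on low counts, to 0.993, and its log2 fold change was −0.27 without PBS library 4. PBS libraries 1 and 4 were the highest in Blk, and also in Sox13, Mmp25 and Il17re. Il17re, for a chain of the IL17C receptor, was at 19.2, 26.1 and 34.5 CPM, against 71.7, 46.4, 45.2, 97.0 and 55.8 CPM, without overlap but just past the threshold (−1.25 ± 0.34, adjusted p = 0.0504). Il17re was called lower in several alternatives, among them DESeq2 (0.00113), no filter (0.000434) and the compared groups alone (0.0242), within a range of 0.000434 to 0.224. Il23r was at 26.7, 12.2 and 26.2 CPM, against 14.2 to 69.0 CPM (adjusted p = 0.379).

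The cytotoxic and interferon-gamma program had 2 raised and 3 lowered members of 25, with a median of 0.13. Xcl1, a chemokine for cross-presenting dendritic cells, was at 75.7, 68.7 and 104 CPM in TNFa libraries, against 21.5, 20.7, 23.6, 27.6 and 37.0 CPM in PBS libraries (1.66 ± 0.25, adjusted p = 0.000491). Il12rb2, the signalling chain for IL12, was at 94.5, 101 and 74.7 CPM, against 13.7 to 39.4 CPM (1.67 ± 0.32, adjusted p = 0.0037). The lowered members were Il2rb, Cd7 and the chemokine receptor gene Cxcr3. Cd7, a T and NK cell surface protein, was at 714, 581 and 541 CPM, against 1234, 1122, 1015, 822 and 786 CPM (−0.70 ± 0.16, adjusted p = 0.0167). Cxcr3 was at 75.1, 70.1 and 77.6 CPM, against 82.1 to 156 CPM (−0.72 ± 0.17, adjusted p = 0.0245). The call of Cd7 was lost without TNFa libraries 2 (0.0879) or 3 (0.120), with a range of 5.43e-05 to 0.120. That of Cxcr3 was lost without TNFa library 1 (0.0925), 2 (0.117) or 3 (0.0790) or PBS library 4 (0.0594), with a range of 0.00233 to 0.178. Ifng, the signature cytokine of the program, was at 6.42, 1.87 and 25.7 CPM, against 1.87, 1.18, 0.254, 2.78 and 2.33 CPM, and it was not called (2.71 ± 0.81, adjusted p = 0.0757). Ifng was called with DESeq2 (0.0207), with no filter (0.0203) and without TNFa library 2 (0.0361), and without TNFa library 3 its log2 fold change was 1.27 (0.64). TNFa library 3 was the highest in both Ifng and Il17f. Tbx21, which encodes T-bet, was not called (−0.54 ± 0.21, adjusted p = 0.188). Of the wider list of cytokine genes, Il17f was the 1 raised member of 10. Chemokine and chemokine receptor genes had 2 raised (Cxcl10 and Xcl1) and 2 lowered members of 19. The lowered ones were Cxcr3 and Cxcr6, which guides T cells to CXCL16, at 229, 272 and 286 CPM against 335 to 702 CPM (−0.93 ± 0.21, adjusted p = 0.0149). The call of Cxcr6 was lost without TNFa library 1 (0.0972) or 2 (0.0542), with a range of 5.09e-07 to 0.0972.

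Immediate-early genes had 7 raised members of 23 and none lowered (median 0.51), and AP-1, BATF and ATF factors 3 of 13 (median 0.42). Junb was at 402, 402 and 516 CPM in TNFa libraries, against 120, 124, 123, 140 and 108 CPM in PBS libraries (1.84 ± 0.15, adjusted p = 6.15e-07). Batf was at 165, 150 and 183 CPM, against 55.2 to 63.1 CPM (1.47 ± 0.16), and Jun at 59.4, 32.4 and 35.7 CPM, against 2.36 to 13.1 CPM (2.48 ± 0.43). These subunits pair in the AP-1 family of transcription factors. Myc, a driver of growth, was at 236, 307 and 371 CPM, against 114, 161, 109, 105 and 115 CPM (1.34 ± 0.18, adjusted p = 9.89e-05). The MYC and growth list had 2 raised members and 1 lowered of 20, the raised ones being Myc and its antagonist Mxd1 (1.19 ± 0.18), and its median was 0.01. Ribosome biogenesis genes had 6 raised members of 26 and none lowered, with a median of 0.46. Wdr75 (0.69 ± 0.15), Nop58 (0.63 ± 0.15) and Nop16 (0.96 ± 0.21) lost their calls without some single libraries, at adjusted p of 0.0864 (without TNFa library 1) and 0.0576 (TNFa 2) for Wdr75, and of 0.0518 (TNFa 1) and 0.0636 (TNFa 2) for Nop16. For Nop58 the values were 0.1 (TNFa 1), 0.0513 (TNFa 2), 0.124 (TNFa 3), 0.0640 (PBS 3) and 0.0555 (PBS 4). Their ranges over all alternatives reached from 0.000729 to 0.0864 for Wdr75, from 0.000888 to 0.128 for Nop16 and from 0.00355 to 0.124 for Nop58.

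Glucocorticoid-responsive genes, listed because systemic cytokines can raise stress hormones, had 8 raised members and 1 lowered of 19, with a median of 0.35. The part of stress hormones in these values was not tested, and Dusp1, Il7r, Pik3ip1 and Zfp36l2 are also members of other lists. Tsc22d3, which encodes GILZ, was at 922, 879 and 906 CPM in TNFa libraries, against 345, 345, 319, 315 and 454 CPM in PBS libraries (1.34 ± 0.13, adjusted p = 3.66e-06). Fkbp5, a glucocorticoid receptor co-chaperone, was at 309, 339 and 305 CPM, against 119 to 183 CPM (1.02 ± 0.17), Ddit4 was raised by 1.24 ± 0.15 and the clock gene Per1 by 1.14 ± 0.22. Of mRNA decay regulators, 2 of 15 were raised (median 0.14), among them Zfp36l2 at 60.1, 88.2 and 88.4 CPM against 20.6 to 36.3 CPM (1.62 ± 0.22). Other lists held few calls. Cell cycle genes had 1 raised member of 24 (median −0.41), glycolysis and hypoxia genes 1 lowered of 22 (median −0.21), and the 28 cytosolic ribosomal protein genes none (median 0.01).

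**Figure D4:**
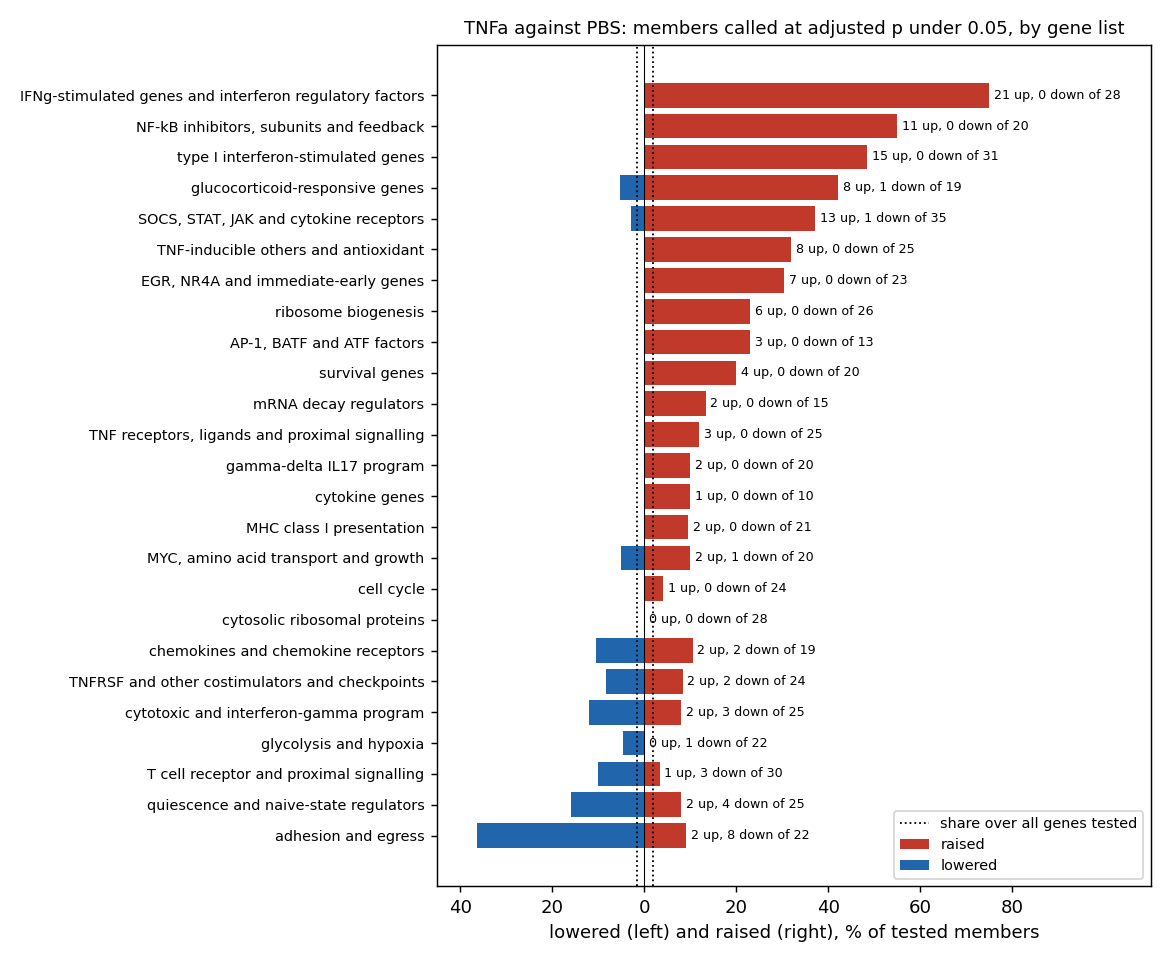
Bars give the percentage of tested members of each list that were raised (right, red) or lowered (left, blue) by TNFa, with the counts printed beside them. Dotted lines mark the shares over all genes tested, 1.89% raised and 1.52% lowered; the lists share some genes, and adhesion and egress is the list with the largest lowered share.

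TNFa and IL1b were compared directly within the gamma-delta libraries. At the threshold 5 of 13616 genes differed (0.0367%), with 3 higher after TNFa (0.0220%) and 2 lower (0.0147%). At an unadjusted p under 0.05 there were 923 of the 13616, many of which would pass by chance, and DESeq2 called 73. Il17re was at 19.2, 26.1 and 34.5 CPM after TNFa, against 0, 0.428 and 2.00 CPM after IL1b (log2 difference 5.21 ± 0.56, adjusted p = 0.000245); leaving out IL1b library 1 gave 4.54 and IL1b library 3 gave 6.85. Mmp25, a membrane metalloproteinase, was at 18.4, 41.7 and 50.8 CPM after TNFa, against 3.43, 2.35 and 0.857 CPM after IL1b (3.97 ± 0.55, adjusted p = 0.00313). Neither Il17re nor Mmp25 was raised by TNFa against PBS. There the log2 fold change over the alternatives ran from −1.48 to −1.05 for Il17re and from −1.18 to −0.52 for Mmp25. The adjusted p of Mmp25 against PBS ran from 0.038 to 0.671 over them. Crtam was at 363, 369 and 436 CPM after TNFa, against 201, 160 and 178 CPM after IL1b (1.12 ± 0.15, adjusted p = 0.00313). Pygl, at 0.214, 4.56 and 0 CPM after TNFa, was at 27.4, 34.0 and 37.1 CPM after IL1b (−4.25 ± 0.70, adjusted p = 0.0217), and Cpt1a was at 49.6, 66.0 and 49.9 CPM after TNFa, against 118, 135 and 125 CPM after IL1b (−1.19 ± 0.18, adjusted p = 0.00951). The naming rule required separate groups of these 5 genes, and the calls were few and sensitive. The count was 3 without TNFa library 1 or 3, 13 without IL1b library 1 and 1 without IL1b library 2. Crtam and Mmp25 lost their calls without IL1b library 2 (0.0514 in both). Cpt1a and Pygl lost theirs without TNFa library 1, TNFa library 3 or IL1b library 2, and Pygl also without IL1b library 3, with adjusted p ranges over all alternatives of 5.78e-07 to 0.105 for Cpt1a and 5.65e-16 to 0.138 for Pygl. IL1b library 1 also carried dendritic cell markers summing to 588 CPM, and library 3 140 CPM, against 16.5 to 72.1 CPM in the TNFa libraries. Monocyte markers summed to 134 and 275 CPM in IL1b libraries 2 and 3, against 24.9 to 95.8 CPM after TNFa. NK markers summed to 524 to 678 CPM after IL1b and 389 to 456 CPM after TNFa. The part of these cell types in the comparison was not tested.

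Set beside PBS, the cytokines gave the following values for some of the same genes; these comparisons share the 5 PBS libraries. Cd83 changed by 5.96 after TNFa, by 3.95 ± 0.49 after IL1b (adjusted p = 7.93e-05) and by 0.40 ± 0.54 after IL6 (0.999). Socs3 changed by 2.27, 2.28 ± 0.15 (3.01e-08) and 0.89 ± 0.15 (0.0551) in the same order. Pygl changed by −4.01, 0.25 ± 0.50 (0.925) and −0.53 ± 0.52 (0.997). Gbp2 changed by 1.16 after TNFa and by 0.32 after IL1b (0.556), and Ltb by 0.78 and 0.20 (0.614). For none of Cd83, Socs3, Gbp2 and Ltb did the direct test between TNFa and IL1b pass the threshold.

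The TNFa response of gamma-delta T cells was then set against that of CD4 T cells and NK cells of the same screen, in a fit of 24 libraries with a test of the difference between responses. The 24 libraries were treated as independent. Whether libraries of different cell types came from the same mice is not stated, and the p-values take no account of it. Against CD4 T cells, 67 of 14288 genes differed (0.469%), 26 with a higher response in gamma-delta T cells (0.182%) and 41 with a lower one (0.287%). Higher and lower refer here and for NK cells to the signed log2 change, so a gene that fell less counts as higher. Crtam rose by 1.70 ± 0.21 in gamma-delta T cells and changed by −0.51 ± 0.28 in CD4 T cells, where it was low (difference 2.21 ± 0.35, adjusted p = 0.00185). Lcp1, for the actin bundler L-plastin, rose by 0.64 ± 0.09 in gamma-delta T cells and fell by 0.33 in CD4 T cells, a change of −0.33 ± 0.09 (difference 0.97 ± 0.13, adjusted p = 0.000199). Cd27, a costimulator, was not called in gamma-delta T cells (−0.17 ± 0.11) and fell in CD4 T cells (−1.04 ± 0.12; difference 0.87 ± 0.16, adjusted p = 0.00741). Several genes rose more in CD4 T cells. Apobec3, an antiviral deaminase, rose by 1.32 ± 0.09 in gamma-delta T cells and by 2.17 ± 0.09 in CD4 T cells (difference −0.85 ± 0.14, adjusted p = 0.00198). Gadd45g rose by 2.47 ± 0.28 and 4.70 ± 0.33 in the same order (−2.23 ± 0.44, adjusted p = 0.0134), and Map3k8 by 1.28 ± 0.30 and 3.70 ± 0.34 (−2.42 ± 0.46, adjusted p = 0.0108). Ikzf3, a lymphocyte zinc finger factor, was not called in gamma-delta T cells (−0.06 ± 0.14) and rose in CD4 T cells (1.22 ± 0.14; difference −1.28 ± 0.19, adjusted p = 0.0012). Kit, the stem cell factor receptor gene, Il18rap, for a chain of the IL18 receptor, and the scaffold gene Frmd4b had differences of −5.82, −5.01 and −4.16. For Kit, CD4 T cells were at 8.35, 9.12 and 15.5 CPM after TNFa, against 0 to 0.249 CPM after PBS. Without CD4 T cell PBS library 4 the difference of Il18rap was −6.29, and without PBS library 1 that of Frmd4b was −4.82. For NF-kB feedback genes no member of 20 differed, with median responses of 0.82 in gamma-delta and 0.76 in CD4 T cells. For the IFNg list none of 28 differed, with medians of 1.00 and 1.19. With 0.469% of all genes differing, few or no calls would be seen in lists of this size, so these counts say little about their members. The count was 44, 34 and 39 without gamma-delta TNFa libraries 1, 2 and 3, and 37, 42 and 41 without CD4 T cell TNFa libraries 1, 2 and 3.

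Against NK cells, 184 genes differed (1.29%), 94 with a higher response in gamma-delta T cells (0.658%) and 90 with a lower one (0.630%). Ribosome biogenesis was the list with the most differences: 12 of 26 members responded less in gamma-delta T cells and none more, and the median responses were 0.45 in gamma-delta T cells and 1.34 in NK cells. Nop58, a nucleolar protein gene, changed by 0.62 ± 0.15 in gamma-delta T cells and by 1.95 ± 0.15 in NK cells (difference −1.33 ± 0.22, adjusted p = 0.00131), and Nolc1 by 0.50 ± 0.15 and 1.75 ± 0.15 (−1.25 ± 0.22, adjusted p = 0.00201). Nfkbia rose in both, by 2.06 ± 0.11 in gamma-delta T cells and by 3.14 ± 0.11 in NK cells (−1.09 ± 0.16, adjusted p = 0.00024). Cd69 rose by 2.02 ± 0.21 and 3.57 ± 0.23 (−1.54 ± 0.31, adjusted p = 0.00889), and Ltb by 0.77 ± 0.13 and 2.18 ± 0.13 (−1.41 ± 0.19, adjusted p = 0.000103). Among egress genes, S1pr1 fell by 0.50 in gamma-delta T cells and by 2.00 in NK cells on the log2 scale (difference 1.49 ± 0.15, adjusted p = 7.04e-07). Of the interferon lists, 1 of 28 IFNg members and 1 of 31 type I members had a higher signed change in gamma-delta T cells and none a lower one, beside 0.658% of all genes higher. Irf1 rose by 0.92 ± 0.15 in gamma-delta T cells and changed by −0.02 ± 0.16 in NK cells (0.94 ± 0.22, adjusted p = 0.0279). Ifit2 was not called in gamma-delta T cells (0.68 ± 0.24) and fell in NK cells (−1.62 ± 0.28; difference 2.29 ± 0.36, adjusted p = 0.000794), and Ifit1bl1 changed by 0.47 ± 0.22 and −4.64 ± 0.41 (5.11 ± 0.47, adjusted p = 2.30e-07), or 6.76 without NK TNFa library 1. Socs3 rose by 2.26 ± 0.22 in gamma-delta T cells and was not called in NK cells (0.21 ± 0.26; difference 2.05 ± 0.35, adjusted p = 0.00192). The call of Irf1 was lost without gamma-delta TNFa libraries 1 or 2, gamma-delta PBS library 1, NK TNFa library 3 or NK PBS library 3 (adjusted p of up to 0.0756), with a range of 0.000156 to 0.181 over all alternatives. The count was 120 without gamma-delta TNFa library 1 and 116 without library 2.

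**Figure D5:**
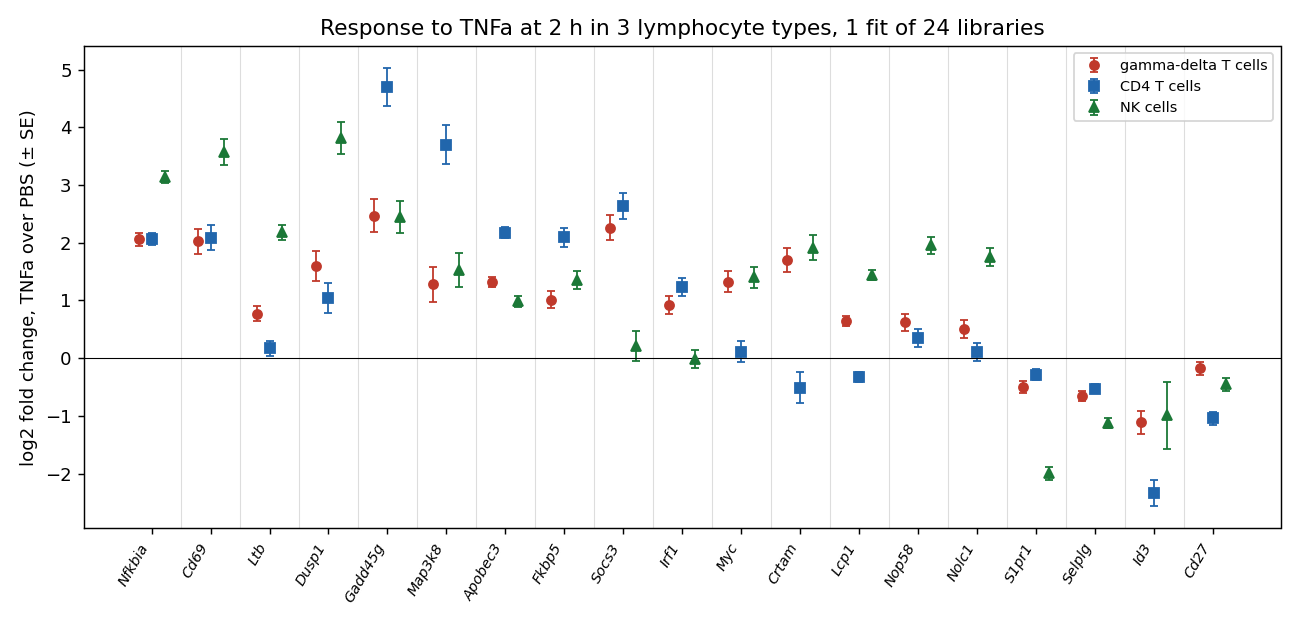
Points give the log2 fold change, TNFa over PBS, of 19 genes in gamma-delta T cells (circles), CD4 T cells (squares) and NK cells (triangles), with bars of 1 SE, from a fit of 24 libraries. Nfkbia and Cd69 lie highest in NK cells, Gadd45g and Map3k8 in CD4 T cells, and S1pr1 lies lowest in NK cells.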

How the data were processed

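The authors deposited 1 table of raw counts, whole numbers for 55011 genes by symbol. Per the submitters' processing notes, STAR 2.7.3a, mm10 and featureCounts were used. The sources used here do not give the version of featureCounts, the annotation, the strand setting or the handling of multi-mapping reads, so overlapping, antisense and near-identical genes are uncertain. Columns were matched to samples by title. edgeR 4.0.16 in R 4.3.3 (TMM, filterByExpr, glmQLFit, glmQLFTest) gave each fold change and each p, adjusted by Benjamini-Hochberg over all genes tested, with a threshold of 0.05; DESeq2 1.42.0 is named where used. The fits held the 14 gamma-delta T cell libraries, or the 24 TNFa and PBS libraries of gamma-delta T, CD4 T and NK cells. An SE is the absolute log2 fold change over the square root of F, folds compare fitted means, and CPM use TMM-scaled totals. Of 19 pairs of libraries within gamma-delta groups, 0 were identical, and chi-square per degree of freedom ran from 9.17 to 19.3, so every library counted as 1 replicate.

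The members and lists were chosen with earlier results of these data known. The naming rule took list members, the 12 raised and 8 lowered most of the called genes without overlap that reached 20 CPM in the higher group, 5 each way against IL1b, and 6 genes by smallest adjusted p for each cell type difference. Other genes named were chosen after their values were seen. RefSeq promoters of GRCm38.p6 were matched by symbol for 9700 of 13616 tested genes, and gene positions are also RefSeq's for that build. The fitting procedure was tested on simulated data. Alternatives were another normalization, 2 filters, DESeq2, the compared groups alone, a replicate block and leaving out each library; the fit without IL1b library 1 and IL6 library 3 was added after seeing the data.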

Additional observations from a re-analysis of the deposited data

Results flagged for a closer look

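Among the 5 PBS libraries of gamma-delta T cells, 1 library lay apart from the other 4 by a gap above Dixon's critical value in 9 of 138 named genes screened (6.52%); chance gives such a gap in about 1 of 20 groups, so the number of genes is near that. Clec4e was at 0.762 CPM in PBS library 3 and 0 in the others, and Il17f at 0.698 CPM in PBS library 5 and at most 0.197 CPM in the others. Csf1r was at 20.7 CPM in PBS library 5, against 0 to 5.34 CPM in the others, so the monocyte receptor transcript was not limited to TNFa libraries. Tsc22d3 was at 454 CPM in PBS library 5, against 315 to 345 CPM, Myc at 161 CPM in PBS library 2, against 105 to 115 CPM, and Tnfrsf1b at 114 CPM in PBS library 2, against 174 to 193 CPM. Pim1 was at 85.5 CPM in PBS library 1, against 56.0 to 58.6 CPM, Selplg at 1458 CPM in PBS library 3, against 1634 to 1667 CPM, and Tnip1, an A20-binding protein gene, at 159 CPM in PBS library 4, against 117 to 128 CPM.

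The response to TNFa differed between gamma-delta T cells and CD4 T cells in 16 named genes by the test of the difference in edgeR's fit of 24 libraries. Each is given as the log2 difference, followed by the responses of gamma-delta T cells and CD4 T cells and the adjusted p. Higher and lower refer to the signed log2 change. Those with a higher response in gamma-delta T cells were Crtam 2.21 (1.70 and −0.51, 0.00185), Lcp1 0.97 (0.64 and −0.33, 0.000199), Wdr12 1.26 (0.68 and −0.59, 0.0245) and Myc 1.21 (1.33 and 0.11, 0.0258). Falls were larger in CD4 T cells for Cd27 0.87 (−0.17 and −1.04, 0.00741) and Id3 1.23 (−1.11 and −2.34, 0.0456). Lower responses were seen in genes of low CD4 T cell PBS values, of which Kit and Il18rap had libraries at 0, so that the fitted size is no bound: Kit −5.82 (0.04 and 5.87, 2.4e-06), Il18rap −5.01 (−0.74 and 4.27, 0.000237) and Frmd4b −4.16 (0.58 and 4.74, 0.000237). Signalling and stress genes with lower responses were Map3k8 −2.42 (1.28 and 3.70, 0.0108), Gadd45g −2.23 (2.47 and 4.70, 0.0134), Mxd1 −1.47 (1.18 and 2.65, 0.00741) and Fkbp5 −1.08 (1.02 and 2.09, 0.0245). The sphingomyelin synthase gene Sgms1 had a negative change in gamma-delta T cells alone, −1.79 (−1.58 and 0.20, 0.0184). The antiviral gene and the zinc finger factor with lower responses were Apobec3 −0.85 (1.32 and 2.17, 0.00198) and Ikzf3 −1.28 (−0.06 and 1.22, 0.0012). Calls were lost when single libraries were left out. For Id3, a gene lowered in both, these were gamma-delta TNFa libraries 1 and 2 and PBS libraries 1, 3, 4 and 5, and CD4 T cell TNFa libraries 1, 2 and 3 and PBS libraries 2, 4 and 5 (adjusted p of 0.0538 to 0.198 without them, and up to 0.362 over all alternatives). For Wdr12 they were gamma-delta TNFa libraries 2 and 3, CD4 T cell TNFa libraries 1, 2 and 3 and PBS library 5 (0.057 to 0.102; up to 0.105). For Myc they were gamma-delta TNFa libraries 2 and 3 and PBS library 3, and CD4 T cell TNFa libraries 2 and 3 and PBS library 5 (0.0504 to 0.118; up to 0.169). For Fkbp5 they were gamma-delta TNFa libraries 1, 2 and 3, CD4 T cell TNFa library 2 and PBS libraries 4 and 5 (0.0504 to 0.0993; up to 0.0993).

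Against NK cells 24 named genes differed by the same test, given in the same form with the response of gamma-delta T cells before that of NK cells. Interferon-related and feedback genes with a higher response in gamma-delta T cells were Ifit1bl1 5.11 (0.47 and −4.64, 2.3e-07), Ifit2 2.29 (0.68 and −1.62, 0.000794), Irf1 0.94 (0.92 and −0.02, 0.0279), Socs3 2.05 (2.26 and 0.21, 0.00192) and Zfp36 1.56 (0.52 and −1.04, 0.00896). Falls were larger in NK cells for S1pr1 1.49 (−0.50 and −2.0, 7.04e-07), Selplg 0.46 (−0.66 and −1.13, 0.0433), Add3 1.6 (−0.54 and −2.13, 2.54e-05) and Calcoco1 1.62 (−0.14 and −1.76, 2.54e-05). Higher responses were also seen in Gem 2.39 (1.54 and −0.85, 2.62e-05) and Clec4e 6.63 (7.45 and 0.82, 0.0136), the last fitted against PBS values at or near 0. NF-kB, activation and cytokine genes with lower responses in gamma-delta T cells were Nfkbia −1.09 (2.06 and 3.14, 0.00024), Nfkbiz −1.55 (0.52 and 2.07, 0.00281), Cd69 −1.54 (2.02 and 3.57, 0.00889), Ltb −1.41 (0.77 and 2.18, 0.000103), Dusp1 −2.22 (1.6 and 3.82, 0.00201), Il7r −1.25 (0.58 and 1.83, 0.0223), Sh2d2a −1.30 (0.06 and 1.36, 6.19e-06) and Lcp1 −0.80 (0.64 and 1.44, 0.000794). Nucleolar genes with lower responses were Nop58 −1.33 (0.62 and 1.95, 0.00131), Nolc1 −1.25 (0.50 and 1.75, 0.00201), Nop56 −0.84 (0.47 and 1.31, 0.00674) and Nop16 −1.43 (0.96 and 2.39, 0.0166). The remaining gene was Cyp20a1 −1.97 (−1.59 and 0.37, 0.0386). The call of Selplg was lost without gamma-delta TNFa libraries 2 or 3 or PBS libraries 1, 2, 3 or 5, NK TNFa library 1 or NK PBS libraries 1, 2 or 3 (adjusted p of 0.0517 to 0.0881, and up to 0.151 over all alternatives).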

How the results depend on the processing

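The count of genes called for TNFa against PBS was 465 and stayed within 1.5 times of it with DESeq2 size factors (466), no filter (666), a mean of at least 1 CPM (438), the compared groups alone (501) and the added fit without IL1b library 1 and IL6 library 3 (462). DESeq2's Wald test called 814. Leaving out each library gave 273 to 483, with the lowest values without TNFa libraries 3 (273) and 1 (300). For TNFa against IL1b the 5 calls became 113 with no filter, 73 with DESeq2, 3 with the compared groups alone and 1 to 13 when a library was left out. For gamma-delta against CD4 T cells the 67 calls became 158 with no filter, 191 with DESeq2 and 34 to 92 with a library left out. For gamma-delta against NK cells the 184 calls became 333, 421 and 116 to 180 in the same order, and 99 with the compared groups alone. A replicate block, treating equal numbers as pairs, called 253, 8, 15 and 72 genes in these 4 comparisons; deviations of same-numbered TNFa and PBS libraries correlated at 0.0001, 0.0277 and −0.031, so the numbers were not taken as pairs. The cause of these shifts was not tested. Of 117 called genes taken up by the naming rule or the text for TNFa against PBS, 77 were called in every alternative and 40 were lost in at least 1, and none of them changed sign in the alternatives run. In that comparison 2174 genes had an unadjusted p under 0.05, some of which would pass by chance, against 465 called. The fits rest on 3 TNFa libraries of 1000 sorted cells each.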
